A study of Mus musculus with 6 samples.

Results

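Il10, Areg, Csf2, Il3, Il9, Il6, Il2, Lif and Tnf encode cytokines and growth factors that activated group 2 innate lymphoid cells (ILC2s) can make beside the type 2 cytokines IL-4, IL-5 and IL-13. These 9 genes, chosen by name from the 21887 protein-coding genes of the mouse gene table, were followed through 6 CUT&Tag peak lists. Each gene was given a window, its mm10 span plus 2 kb on each side, and a distal flank, the stretch between 2 kb and 20 kb from the span. Every peak with at least 1 bp inside a window or flank was taken.

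The cells were ILC2s sorted from mouse colon and grown in culture with 4 cytokines, the alarmins IL-33 and IL-25 and the growth cytokines IL-7 and IL-2, which all 3 groups shared. The Control group had no named agent, the FK866 group received FK866, and the third group received FK866 plus succinate, with 2 libraries in each. FK866 blocks NAMPT, the enzyme that recycles nicotinamide into NAD, and succinate is an intermediate of the tricarboxylic acid cycle. The sources used here give no mouse strain, genotype, age, dose or time, and do not say whether libraries came from separate cultures or animals. The p-values below therefore measure only the spread between these samples, which may be technical. CUT&Tag uses an antibody to bring a transposase to chromatin, which cuts and tags the DNA close to the bound target. The sources used here do not name the antibody's target. A peak is therefore a stretch enriched for an unnamed target and says nothing of RNA or secreted protein.

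ILC2s sit in barrier tissue and release cytokines within hours of alarmin signals such as IL-25 and IL-33, before any antigen-specific response. Their cytokine genes are kept in accessible chromatin and respond to transcription factors of the GATA, STAT, NFAT, AP-1 and NF-kB families. In the gut, amphiregulin acts on the epithelium in repair, IL-10 restrains inflammation, and GM-CSF and IL-3 act on myeloid cells. IL-9 and IL-2 act on lymphoid cells and mast cells, while IL-6, LIF and TNF are pleiotropic signals shared with many other cell types.

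The lists held between 40320 peaks (FK866 1) and 56361 peaks (FK866 plus succinate 2) on 21 chromosomes, and covered between 39.0 and 43.8 Mb. In these 2 lists, 28252 and 26853 peaks had a deposited q under 0.05. FK866 plus succinate 2 had the most and the narrowest peaks, with a median width of 528 bp against 616 to 737 bp in the other libraries. Across all genes, 72.8% of windows held a peak in at least 1 library and 64.1% held one in all 6. All 10 ILC2 marker genes (Gata3, Rora, Il1rl1 and others) had a peak in all 6 libraries, with a mean covered share of 18.9% to 20.9%. The marker lists for other cells were first counted by a peak in at least 1 library. Peaks were present at 6 of 8 T cell genes (none at Cd8a or Cd8b1) and 5 of 6 B cell genes (none at Ms4a1). They were present at 2 of 5 ILC1 and NK cell genes (none at Ncr1, Klrb1c or Ifng). They were present at 2 of 5 ILC3 genes (none at Il17a, Il23r or Ncr1), 5 of 6 macrophage genes (none at Adgre1) and 1 of 5 mast cell genes (none at Fcer1a, Cpa3, Mcpt4 or Ms4a2). They were present at all 5 epithelial genes and 4 of 5 fibroblast genes (none at Dcn). Counted by a peak in all 6 libraries, as for the ILC2 genes, the numbers were 5 (T cell), 5 (B cell), 2 (ILC1 and NK cell) and 1 (ILC3). By that count they were 2 (macrophage), 1 (mast cell), 4 (epithelium) and 2 (fibroblast). No gene of these lists passed the test between groups described below, and their part in the results at the cytokine genes was not tested.

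The DNA just before the start of a gene carries the core promoter and often binding sites for inducible factors, and 4 promoters are shown because they cover the range seen here. The Areg promoter had a peak in all 6 libraries, that of Il6 in 5, that of Il2 in 1 and that of Il9 in none. Each sequence is the 250 bases before the gene start from RefSeq (GRCm38.p6, the assembly of mm10), 5′ to 3′ on the gene's strand. Capitals mark matches to the motifs TATAAA (a core promoter element), TGANTCA (bound by AP-1), TGACGTCA (the CRE, bound by CREB proteins), GGAAA (core of an NFAT or ETS site) and an NF-kB motif, GGGNN followed directly by TTTCC, searched on both strands. Areg lies on the plus strand (chr5:91139349-91139598), Il6 on the plus strand (chr5:30012864-30013113), Il9 on the minus strand (chr13:56482258-56482507) and Il2 on the minus strand (chr3:37125955-37126204).
Areg: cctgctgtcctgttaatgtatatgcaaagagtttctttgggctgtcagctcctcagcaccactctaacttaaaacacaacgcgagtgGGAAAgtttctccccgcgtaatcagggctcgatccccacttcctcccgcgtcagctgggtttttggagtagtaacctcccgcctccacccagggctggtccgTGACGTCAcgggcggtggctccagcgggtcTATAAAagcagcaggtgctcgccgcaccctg
Il6: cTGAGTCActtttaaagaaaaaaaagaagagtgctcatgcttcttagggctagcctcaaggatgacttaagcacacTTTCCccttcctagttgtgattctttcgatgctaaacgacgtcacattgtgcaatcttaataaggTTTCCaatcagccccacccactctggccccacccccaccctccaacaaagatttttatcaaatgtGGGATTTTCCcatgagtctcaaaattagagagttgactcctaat
Il9: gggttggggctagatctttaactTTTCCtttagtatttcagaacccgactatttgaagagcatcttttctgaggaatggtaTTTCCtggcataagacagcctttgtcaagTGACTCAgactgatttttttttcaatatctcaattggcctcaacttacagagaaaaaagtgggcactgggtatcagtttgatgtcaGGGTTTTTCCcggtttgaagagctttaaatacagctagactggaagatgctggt
Il2: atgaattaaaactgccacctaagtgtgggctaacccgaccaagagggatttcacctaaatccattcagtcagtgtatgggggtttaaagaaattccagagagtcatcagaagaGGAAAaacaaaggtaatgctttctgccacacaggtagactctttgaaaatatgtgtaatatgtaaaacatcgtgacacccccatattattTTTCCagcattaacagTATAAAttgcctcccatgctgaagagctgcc

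The Areg promoter held TGACGTCA from -61 to -54 and TATAAA from -31 to -26, counted back from the gene start. TGACGTCA was found in 1.92% of the 21263 promoters of the table and TATAAA in 11.6%. Il6 held GGGATTTTCC from -44 to -35 and TGAGTCA from -249 to -243. Il9 held GGGTTTTTCC from -54 to -45 and TGACTCA from -140 to -134. The NF-kB motif occurred in 1.43% of all promoters and, among the 8 of the 9 genes with an entry, in Il9 and Il6. Its last 5 letters, TTTCC, are also a GGAAA match on the other strand. TGANTCA occurred in 6.13% of promoters and in those of Il9, Il6 and Lif. TATAAA was also present in Il2 and Tnf, and GGAAA was present in all 8, as in 54.6% of all promoters. Of the other 3 motifs searched, GGGNNTTCC (a shorter form for NF-kB) occurred in 5.41% of all promoters, GATAAG (for GATA factors) in 6.25% and TTCNNNGAA (for STAT factors) in 6.58%. None of them matched a promoter of the 8. A match is a run of letters and not a measured binding site.

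CpG dinucleotides differed widely among the 8 promoters. Areg had 15 in its 250 bases, Tnf 10, Lif 6, Il3 5, Il6 3, and Csf2, Il9 and Il2 had 2 each. Over all promoters (250 bases before to 50 after the start), a peak was present in all 6 libraries at 4.71% of those with 0 to 2 CpG, 19.4% with 3 to 5, 54.9% with 6 to 10, 85.2% with 11 to 20 and 90.7% with at least 21. Areg, Tnf and Lif, the 3 cytokine genes with the most CpG, had promoter peaks in all 6 libraries. At Csf2, with 2 CpG, 5 of 6 libraries had a promoter peak, covering 120 and 204 bp of 300 in Control, 51 and 0 bp under FK866, and 135 and 19 bp under FK866 plus succinate. At Il6, with 3 CpG, the covered part was 300 and 247 bp in Control and 42 and 128 bp under FK866. Under FK866 plus succinate it was 0 and 18 bp. The overlaps of 19 bp at Csf2 and of 42 and 18 bp at Il6 lay wholly in the 50 bases after the start. Among all promoters with 0 to 2 CpG, 89.9% had no peak in any library, so Il9 (none) lay with most of that class and Csf2 did not.

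**Figure D1:**
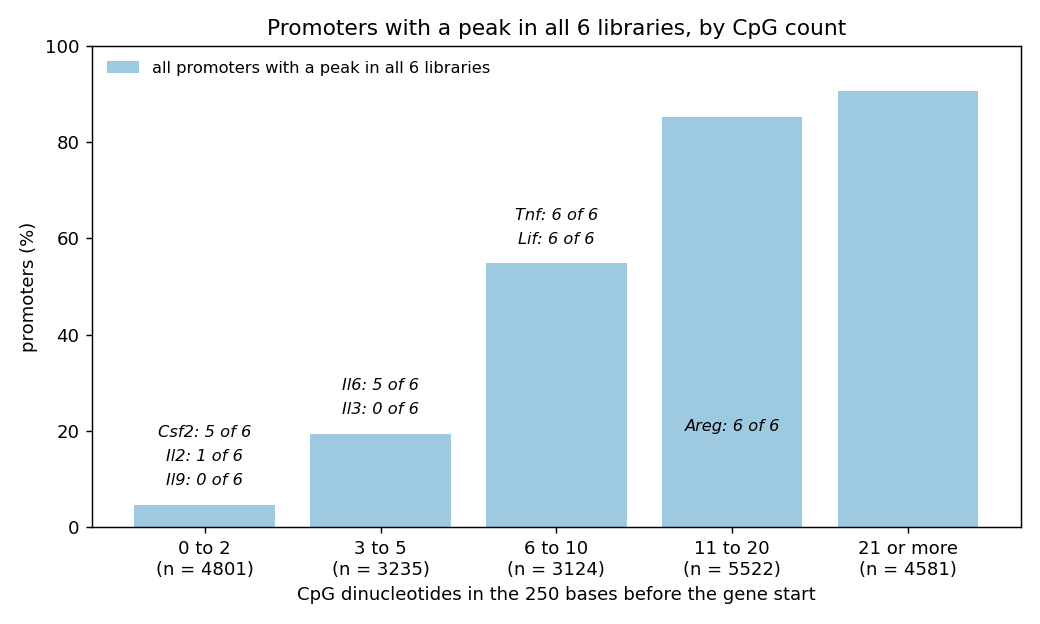
Percentage of all mouse promoters with a peak in all 6 libraries (bars, y axis from 0) by the number of CpG dinucleotides in the 250 bases before the gene start (x axis, n promoters in brackets). Gene names above or inside the bars give the number of libraries with a promoter peak for 8 cytokine genes, and their height has no meaning. The bars run from 4.71% to 90.7%, and Csf2 (5 of 6 libraries) stands in the lowest class.

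All 9 genes had a window peak in at least 1 library, but the coverage fell into distinct levels. Il10, Csf2, Lif, Tnf, Areg and Il6 had window peaks in all 6 libraries, Il9 in 5, Il2 in 3 and Il3 in 1. By the median covered share over 6 libraries the order was Il10 (40.2%), Csf2 (34.8%), Lif (33.4%), Tnf (31.1%), Areg (18.5%), Il6 (7.49%), Il9 (4.08%), Il2 (1.60%) and Il3 (0%). The ranges of neighbours did not overlap between Il10 and Csf2, between Tnf and Areg, and between Areg and Il6. Those of Csf2, Lif and Tnf overlapped, as did those of Il6, Il9, Il2 and Il3. Over all windows covered in at least 2 libraries, the median covered share was 8.03%, but a covered share also depends on gene length and sets no order of signal.

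**Figure D2:**
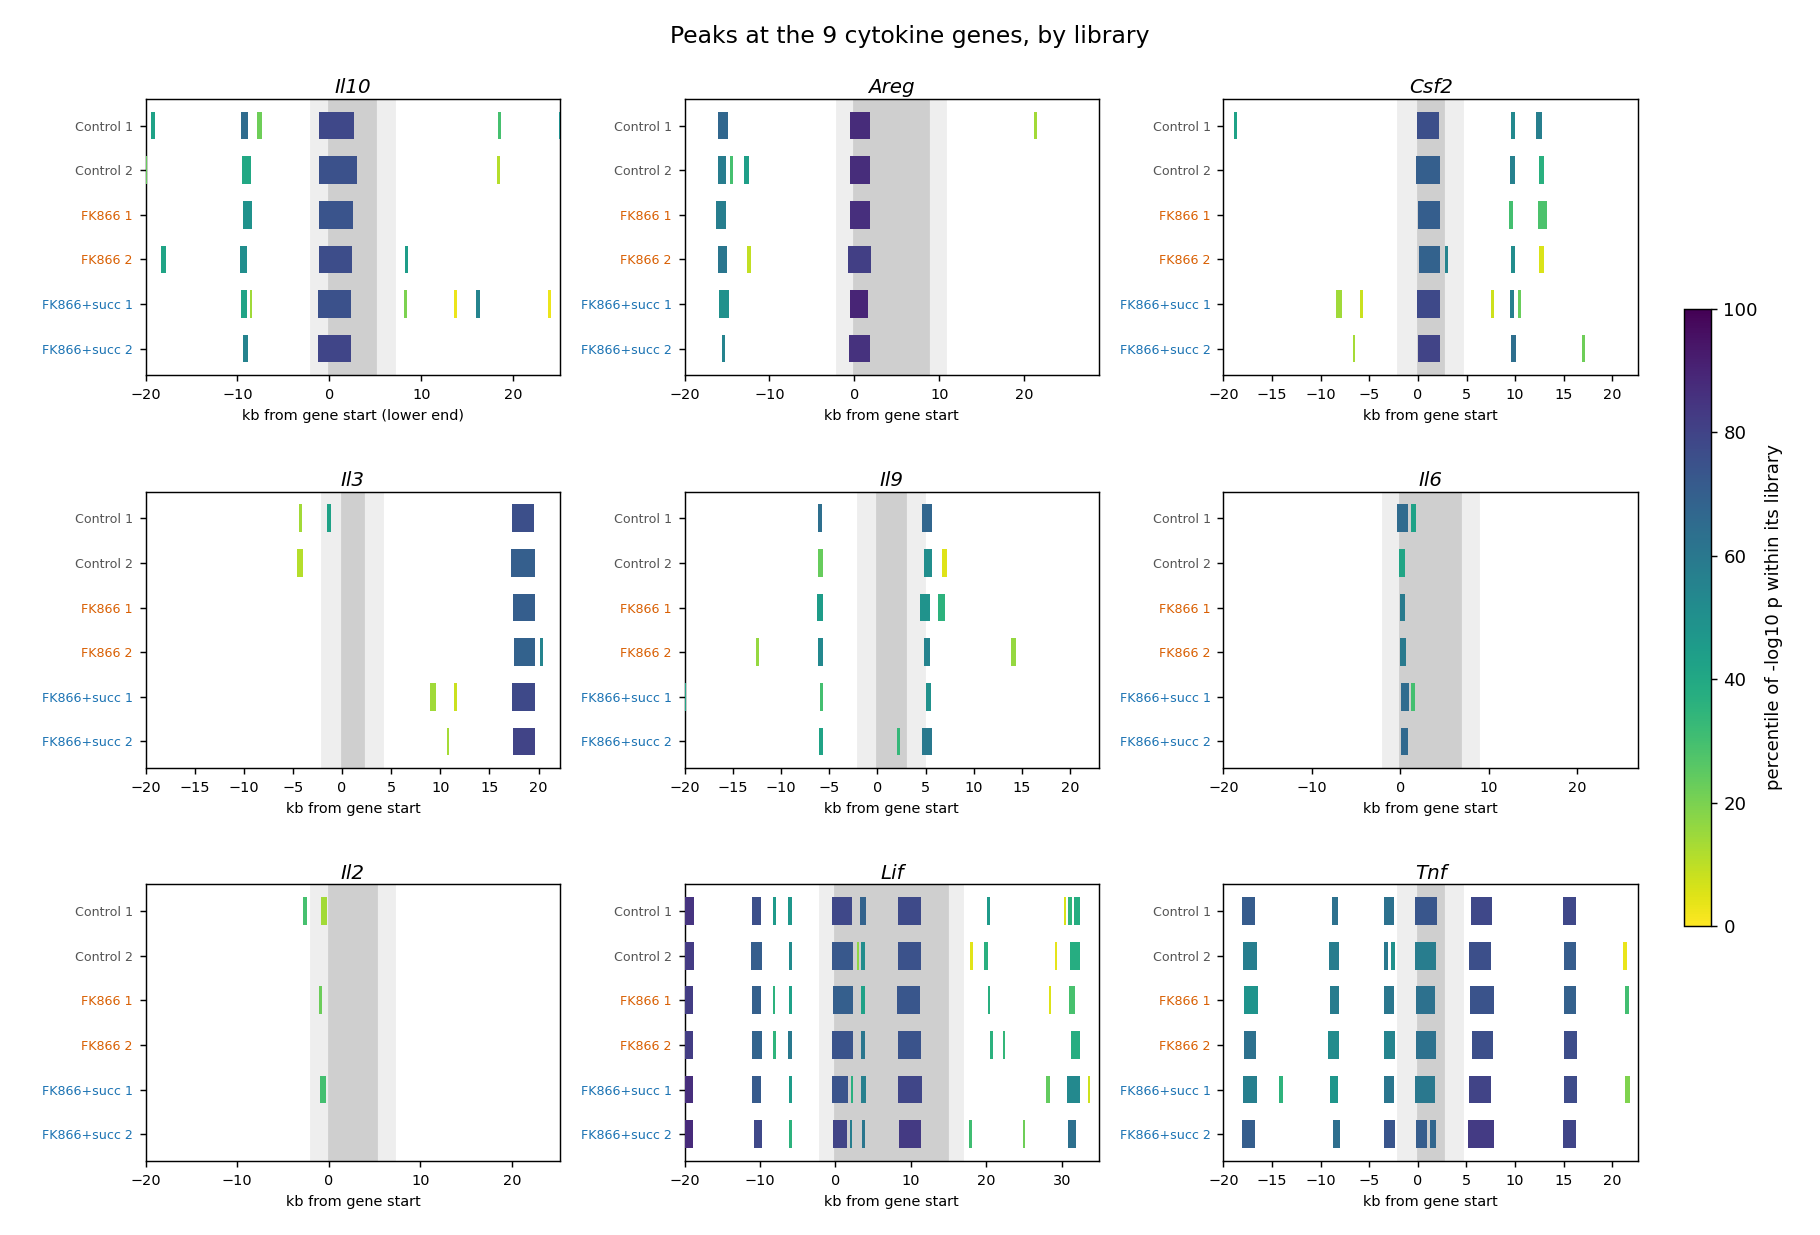
Peaks of each library (rows) along each cytokine gene, in kb from the gene start in the direction of transcription (for Il10, from the lower coordinate). Dark grey is the gene span, light grey the 2 kb added on each side, and colour the percentile of a peak's -log10 p within its own library. Il10, Areg, Csf2, Lif and Tnf carry wide peaks in every row, and Il2 and Il3 carry only weak, scattered ones near the gene.

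Il10 encodes the regulatory cytokine IL-10 (chr1:131019845-131024970). Its window held 1 wide peak in every library, which covered 42.5% and 44.7% of the window in Control, 40.5% and 39.9% under FK866, and 39.7% and 39.2% under FK866 plus succinate. Both Control libraries were above all 4 treated libraries. The peaks together spanned chr1:131018605-131022809, which takes in the lower end of the gene; the promoter table has no entry for Il10, so its strand is not used here. Their lengths were 3874 and 4081 bp in Control, 3697 and 3642 bp under FK866, and 3621 and 3581 bp under FK866 plus succinate. By -log10 p, they ranked above 74.1% to 79.3% of the peaks of their libraries. The deposited fold enrichment, which is the authors' value for each peak, was between 3.74 and 4.21. A second site, chr1:131010075-131011457, centred at -9.08 kb from the lower end of the gene, was present in all 6 libraries at percentiles of 39.9 to 64.9.

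Areg encodes amphiregulin, a ligand of the EGF receptor (chr5:91139599-91148432, plus strand). It had 1 window peak in every library, over the promoter and the first part of the gene, within chr5:91138900-91141518. It covered 18.2% and 18.3% of the window in Control, 18.6% and 20.4% under FK866, and 17.1% and 19.1% under FK866 plus succinate. The groups overlapped, except that both FK866 libraries lay above both Control libraries. This was the strongest window peak of the 9 genes in each of the 6 libraries, at percentiles of 87.7 and 87.4 in Control, 86.5 and 81.6 under FK866, and 89.7 and 85.8 under FK866 plus succinate. Its deposited fold enrichment was 6.65 to 10.03. A site upstream, at -15.5 kb (chr5:91123331-91124835) was present in all 6 libraries, each time with a deposited q under 0.05. It covered 1155 and 911 bp in Control, 1121 and 997 bp under FK866, and 1201 and 465 bp under FK866 plus succinate.

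Csf2 and Il3 are neighbours on chromosome 11 and encode GM-CSF and IL-3, growth factors for myeloid cells that share the beta chain of their receptors. Csf2 (chr11:54247270-54249899, minus strand) was covered over 33.8% and 36.7% of its window in Control, 34.2% and 36.1% under FK866, and 35.4% and 33.2% under FK866 plus succinate. The 3 groups overlapped. The peaks together spanned chr11:54247620-54250053, over the body of the gene, at percentiles of 69.0 to 79.9. They reached the gene start except in FK866 2 and FK866 plus succinate 2, where the peak stopped inside the gene. In FK866 2 a second peak of 296 bp lay past the end of the gene. Il3 (chr11:54265085-54267279, minus strand) had 1 window peak, of 351 bp in Control 1 (5.67% of the window, percentile 42.2), and none in the other 5 libraries. The 2 genes thus differed in every library, with Csf2 above 33% and Il3 at or under 5.67%. In Il3's distal flank, the covered length (2505 and 3030 bp in Control, 2265 and 2394 bp under FK866, 3240 and 2462 bp under FK866 plus succinate) came mostly from the Csf2 peak itself.

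Il9 and Il2 encode cytokines that signal through receptors with the common gamma chain. At Il9 (chr13:56479277-56482257, minus strand) the covered share was 5.24% and 2.91% in Control, 7.52% and 2.25% under FK866, and 0% and 9.48% under FK866 plus succinate. The 2 libraries of each group lay farther apart than the group means. The main site was past the end of the gene (chr13:56476620-56477801, centred 5.05 kb from the start) and crossed the window edge. It was present in all 6 libraries at percentiles of 48.5 to 67.5, although the peak in FK866 plus succinate 1 stopped short of the window. The only peak inside the Il9 gene was 1 of 256 bp in FK866 plus succinate 2. Another site upstream, at -5.94 kb (chr13:56487879-56488511) was present in all 6 libraries, with a deposited q under 0.05 in 3.

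At Il2 (chr3:37120713-37125954, minus strand) a peak upstream, at -0.63 kb (chr3:37126123-37127045) was present in 1 library of each group, the library numbered 1. It measured 689 bp in Control, 295 bp under FK866 and 631 bp under FK866 plus succinate. Its percentiles were 13.7, 22.6 and 29.7, and none had a deposited q under 0.05. The Il2 gene itself had no peak in any library.

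Il6 and Lif encode cytokines of the family that signals through gp130. At Il6 (chr5:30013114-30019975, plus strand) the covered share was 16.7% and 7.05% in Control, 4.92% and 6.44% under FK866, and 11.8% and 7.93% under FK866 plus succinate. Both FK866 libraries were below the other 4, and Control 1 stood high. The peak at the start (chr5:30012728-30014060) was present in all 6 libraries, at percentiles of 65.5 and 41.4 in Control, 58.8 and 59.2 under FK866, and 65.1 and 66.3 under FK866 plus succinate. A second peak just downstream (chr5:30014362-30014932) was present in Control 1 and FK866 plus succinate 1 and had no deposited q under 0.05. The distal flank of Il6 had no peak in any library.

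Lif (chr11:4257568-4272514, plus strand) had the most peaks of the 9 genes, 3 or 4 in its window in each library. They covered 34.0% and 35.3% in Control, 32.8% and 34.1% under FK866, and 32.2% and 29.5% under FK866 plus succinate. Both FK866 plus succinate libraries were below the other 4. The 3 sites present in all 6 libraries lay at the start (chr11:4257145-4259929), at 3.65 kb (chr11:4260854-4261589) and at 9.82 kb (chr11:4265756-4269020). The last was a site of 3265 bp at percentiles of 73.3 to 83.2. The start site was 1 peak in each of the 4 libraries without succinate (2683, 2768, 2715 and 2763 bp) and 2 peaks in both FK866 plus succinate libraries (2407 and 2181 bp together). Distal sites in all 6 libraries lay at -10.4 kb (chr11:4246413-4247827, percentiles 68.3 to 78.5), at -6 kb (chr11:4251266-4251870) and at 31.6 kb from the start (chr11:4288201-4290039). A further one, at -20.3 kb (chr11:4235589-4238859), overlapped the window of Osm, which encodes another gp130 cytokine.

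Tnf encodes the inflammatory cytokine TNF and lies on chromosome 17 between Ltb and Lta, which encode lymphotoxins (chr17:35199367-35202007, minus strand). Its window peak (chr17:35200008-35202322) covered 34.2% and 31.2% in Control, 29.9% and 31.0% under FK866, and 31.8% and 25.4% under FK866 plus succinate. FK866 plus succinate 2 was the lowest, and there the peak was split in 2. The percentile of the peak was 73.2 and 57.8 in Control, 63.3 and 63.2 under FK866, and 59.9 and 71.0 under FK866 plus succinate. This site also lay in the window of Lta, so it cannot be given to Tnf alone. The Tnf flank was the most covered of the 9, at 6553 to 7753 bp, and held sites over Ltb, Lta and Lst1 in all 6 libraries. The site at chr17:35210032-35211248, upstream at -8.63 kb, was present in all 6 and lay in no other gene's window.

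**Figure D3:**
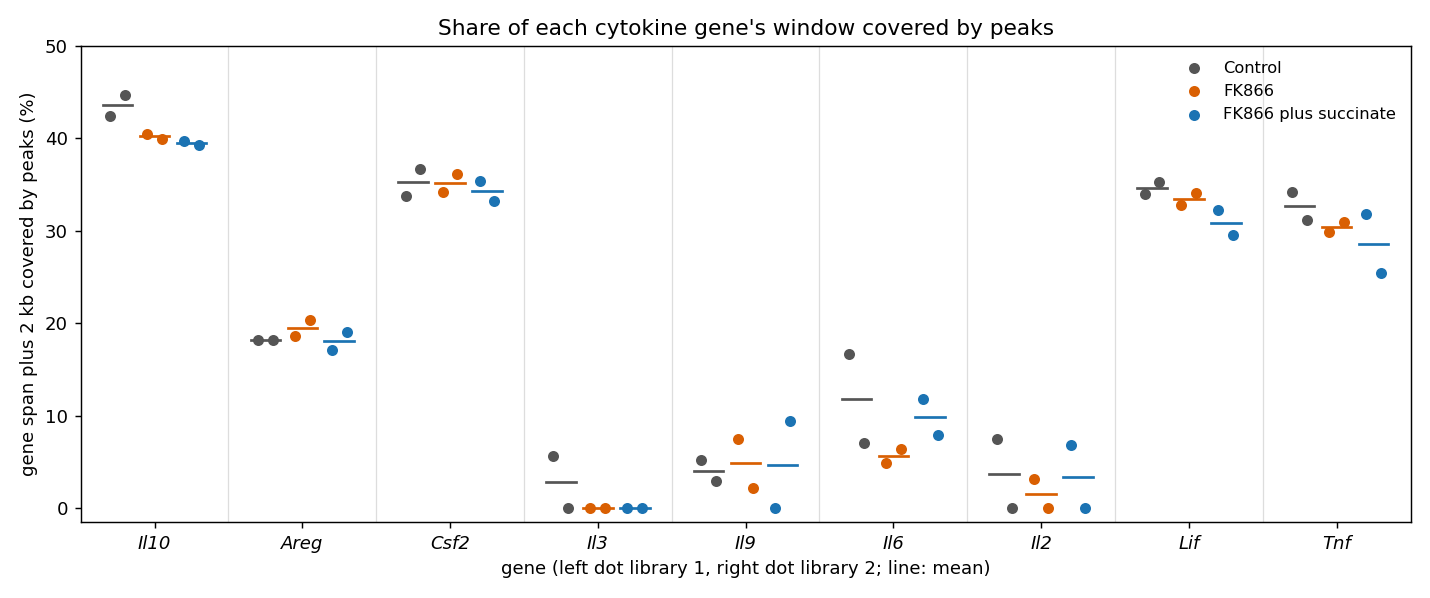
Percentage of each cytokine gene's window (span plus 2 kb on each side) covered by peaks, 1 dot per library (left dot library 1, right dot library 2) with a line at the group mean. The y axis starts just below 0 so that dots at 0 can be seen. Il10 is highest in both Control libraries (42.5% and 44.7%), Lif is lowest in both FK866 plus succinate libraries (32.2% and 29.5%), and the 2 Control dots of Il6 lie at 16.7% and 7.05%.

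The strength of the strongest window peak was read as a percentile within each library, since -log10 p depends on the depth of its list. Over the 14038 windows with a peak in all 6 libraries, the mean percentile of the strongest peak had a median of 87.2 and quartiles of 78.5 and 93.5. Areg stood near that median, at 86.5 ± 2.74 (SD over 6 libraries), above 47.4% of those windows. Lif was at 77.2 ± 3.71, Il10 at 76.5 ± 2.06 and Csf2 at 73.9 ± 4.56, above 22.4%, 21.2% and 17.3% of windows. Tnf was at 64.7 ± 6.11 and Il6 at 59.4 ± 9.42, above 8.76% and 6.34%. The type 2 cytokine genes, taken in the same way, were at 81.1 (Il4), 79.1 (Il5) and 77.5 (Il13), below Areg and above the other 5, although Il13, Lif and Il10 differed by less than their SDs. Percentiles in lists of different length show no change between groups, and none was read from them.

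**Figure D4:**
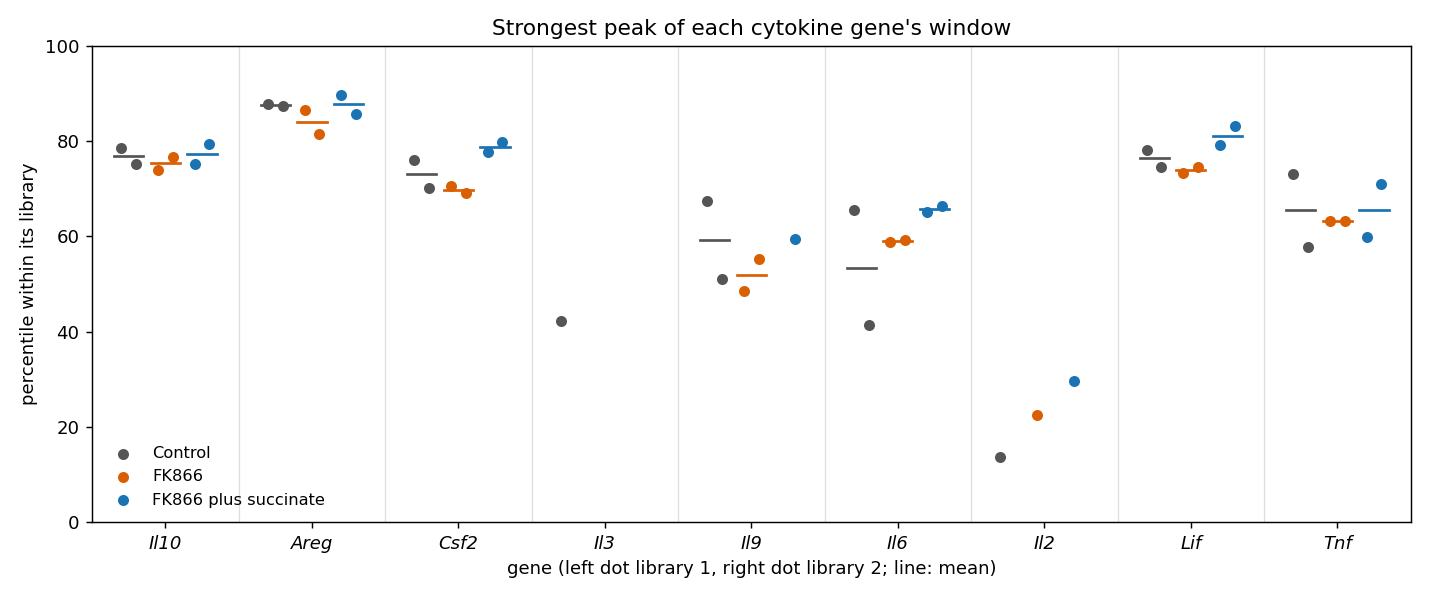
Percentile of the strongest window peak within its own library (y axis, 0 to 100), 1 dot per library with a line at the group mean where both libraries had a peak. A missing dot means no peak in that window. Areg lies between 81.6 and 89.7 in all 6 libraries, and the 3 dots of Il2 lie between 13.7 and 29.7.

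The first comparison, FK866 against Control, asks what NAMPT inhibition changed at these genes. No cytokine window passed the test. By group means, Il10 was 43.6% ± 1.60 (SD, n = 2) in Control and 40.2% ± 0.426 under FK866, a difference of -3.37 points (SE 1.06, limma adjusted p = 0.952). The shift at Il6 was -6.19 points (SE 3.53, limma adjusted p = 1), from 11.9% ± 6.82 to 5.68% ± 1.08, with Control 1 at 16.7% and Control 2 at 7.05%. It was -1.37 points without Control 1 and -11.0 points without Control 2, and -0.0598 with only the higher-scoring 50% of each list. Tnf differed by -2.24 points and Areg by 1.32 points (both limma adjusted p = 1). The differences at Lif (-1.25), Il2 (-2.13), Csf2 (-0.121) and Il9 (0.809) had the same adjusted p. Il3, covered in 1 library, was below the minimum of 2 libraries and was not tested. The test, limma on the covered share of all 15362 windows with Benjamini-Hochberg adjustment, called 11 windows in all (0.0716%), each of which was empty in both libraries of 1 of the groups compared.

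Counted by direction, 6 of the 8 windows tested were lower under FK866 and 2 were higher, with a median difference of -1.69 points. Over all windows tested, 57.7% were lower and the median was -0.108 points. Il10, Csf2, Lif, Tnf and Areg had median covered shares of 18.5% to 40.2%, where that of all windows tested was 8.03%. The medians in points thus come from windows of unlike coverage, here and in the comparisons that follow. The windows of Il10, Il6 and Tnf (3 of 8) were lower in both FK866 libraries than in both Control libraries, and that of Areg (1 of 8) was higher. Over all windows these shares were 19.9% and 12.8%. The median width of all peaks was 616 and 723 bp in Control and 737 and 651 bp under FK866, and its part in these values was not tested.

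The second comparison, FK866 plus succinate against FK866, asks what succinate changed when added to FK866. No cytokine window passed the test here either. Lif was 33.4% ± 0.948 under FK866 and 30.9% ± 1.9 with succinate, a difference of -2.54 points (SE 1.28, limma adjusted p = 0.675). Il6 was 4.21 points higher (SE 3.53, limma adjusted p = 0.784), at 9.89% ± 2.77. Il10 differed by -0.751 points (limma adjusted p = 0.872), Areg by -1.44 (0.773), Tnf by -1.82 (0.868), Csf2 by -0.814 (0.906), Il2 by 1.82 (0.908) and Il9 by -0.143 (0.998). In all, 11 of 15362 windows were called (0.0716%), each of them empty in both libraries of 1 group. Of the 8 windows 6 were lower and 2 higher, with a median of -0.783 points, where 50.9% of all windows were lower and their median was -0.0145. The windows of Il10 and Lif (2 of 8) were lower in both libraries with succinate and that of Il6 (1 of 8) higher, where 21.8% and 17.9% of all windows were. With each library brought to the same distribution of covered shares by quantile normalization, the median over the 8 became 0.323 and the Il10 difference 1.10, so the direction of both turned, and the Lif difference was -0.661. Without FK866 plus succinate 2 the Lif difference was -1.19 points and the Tnf difference 1.39. The median width of all peaks was 737 and 651 bp under FK866 and 618 and 528 bp with succinate, narrower in both libraries, and its part in these values was not tested.

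The comparison of FK866 plus succinate with Control joins both treatments. It shares its samples with the other two, and its values are given side by side with theirs, not as a further line of evidence. Il10 was 39.5% ± 0.310 against 43.6% ± 1.60 in Control, a difference of -4.13 points (SE 1.06, limma adjusted p = 0.416). Lif differed by -3.78 points (SE 1.28, limma adjusted p = 0.494) and Tnf by -4.06 points (SE 2.47, limma adjusted p = 0.710). Before adjustment, limma's p was under 0.05 for Il10 and Lif here and for Il10 in FK866 against Control, as it was for 1426 and 745 of all windows. With a flank of 5 kb none of these 3 had such a p, at -1.35, -3.09 and -1.13 points. After quantile normalization Il10 and Lif against Control lost it too, at -2.13 and -1.76 points. Il10 in FK866 against Control also lost it with the replicate block, with only the 4 libraries compared, and without Control 2 or either FK866 library. Il6 (-1.98), Csf2 (-0.935), Areg (-0.121), Il2 (-0.314) and Il9 (0.666) had limma adjusted p between 0.902 and 0.991. In all, 24 windows were called (0.156%), each of them empty in both libraries of 1 group. Among the 8 windows 7 were lower and 1 higher, with a median of -1.46 points, where 57.1% of all windows were lower and their median was -0.132. The windows of Il10 and Lif (2 of 8) were lower without overlap and none was higher, where 24.5% and 13.4% of all windows were. Without Control 1 the Il6 difference was 2.84 points, so its direction turned. The Tnf difference was -0.843 without FK866 plus succinate 2 and -7.27 without FK866 plus succinate 1. The median width of all peaks was 618 and 528 bp against 616 and 723 bp in Control. The 2 groups overlapped, and the part of peak width in these values was not tested.

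The Il10 difference depended on the window. In 4 kb centred on the strongest summit, in place of the gene span plus 2 kb, it was 0.65 points for FK866 against Control and 2.58 points for FK866 plus succinate against Control. Both values turned in sign, while the Il10 peak itself was longest in the 2 Control libraries. The Il10 site spanned 4205 bp, so a window of 4 kb could not hold all of it. Bases of the peak outside that window were not counted, so it cannot compare the lengths of whole peaks.

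**Figure D5:**
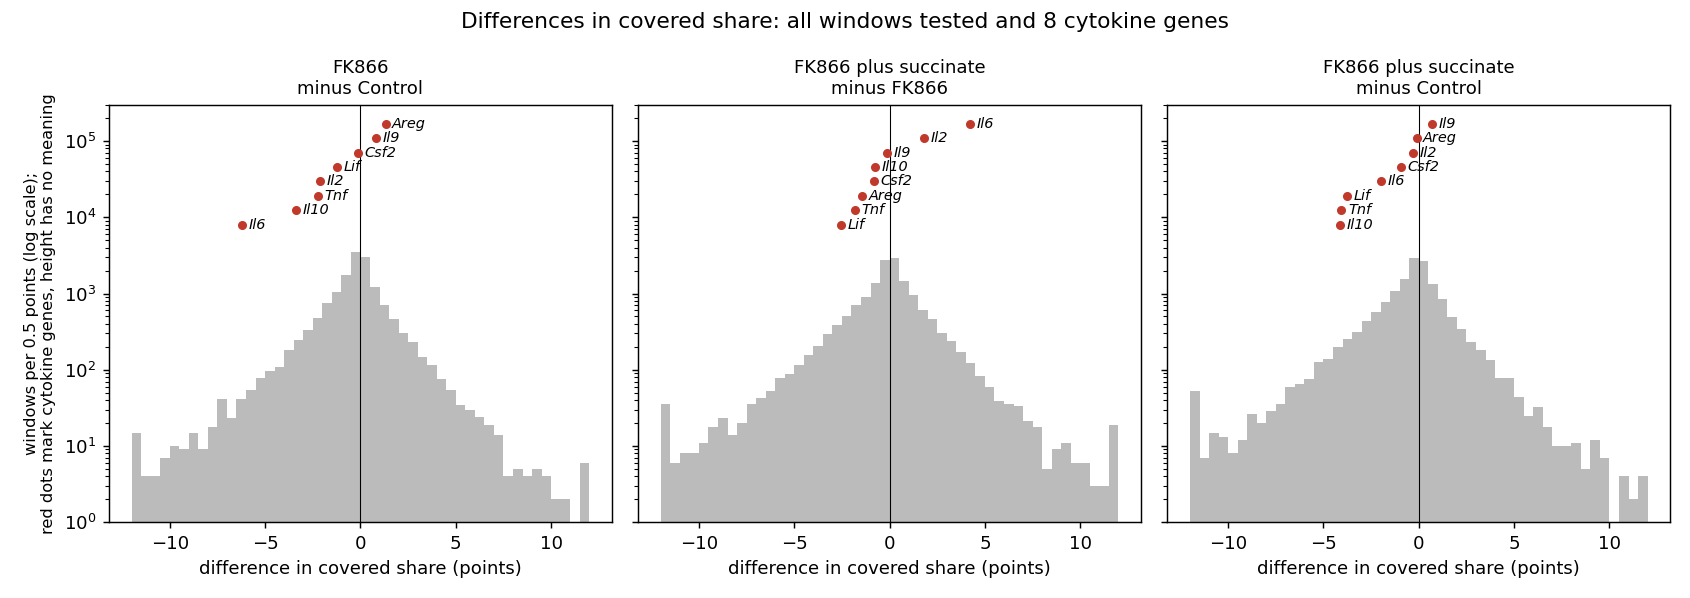
Differences between group means in the covered share of gene windows (x axis, percentage points), for the 3 comparisons. Grey bars count all 15362 windows tested per 0.5 points on a log scale, with values beyond 12 points placed in the end bars, and red dots mark the 8 cytokine genes tested, at heights without meaning. Il10 lies at -3.37, -0.751 and -4.13 points and Il6 at -6.19, 4.21 and -1.98 points in the order of the panels.

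Distal flanks were tested in the same way for 13769 genes, among them 7 of the 9 (Il6 had no distal peak and Il2 had 1, of 397 bp in Control 1). No flank of any gene was called in any comparison (0%, 0% and 0%), while 626, 1112 and 1079 flanks had an unadjusted limma p under 0.05. None of the 7 was among them. The smallest adjusted p was at Il9 with succinate added, where 1785 and 1804 bp were covered under FK866 and 1088 and 1057 bp under FK866 plus succinate (-2.01 points of the flank, limma adjusted p = 0.624). The Il9 lengths under FK866 held a peak of 720 bp in FK866 1 and peaks of 555 and 263 bp in FK866 2. Each of these was absent from the other FK866 library. In both groups the lengths also took in the part of the main Il9 site that lay outside the window. The next smallest adjusted p was at Areg (-2.22 points, limma adjusted p = 0.641). There 1456 and 1811 bp were covered in Control and 1201 and 465 bp under FK866 plus succinate. At Lif the flank held 5357 and 5543 bp in Control, 4599 and 5198 bp under FK866, and 5264 and 4530 bp under FK866 plus succinate. At Il10 it ranged from 531 to 2316 bp, both in FK866 plus succinate libraries, and at Csf2 from 900 to 1874 bp.

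Merging the peaks of all 6 lists gave 101435 sites, of which 65 lay in the windows or flanks of the 9 genes. All 6 libraries held a peak at 22 of them (33.8%), and 1 library did at 27 (41.5%). Over all sites the shares were 21.7% and 49.5%. In the windows, 9 of 15 sites were in all 6 libraries. A site was counted as lost when both reference libraries and neither treated library had a peak, and as gained in the reverse case.

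From Control to FK866, 2 of the 65 sites were lost and none was gained, where 2.04% and 1.4% of all sites were. The lost ones were a site 18.5 kb above the lower end of Il10 (chr1:131038112-131038499) and 1 upstream of Il3, at -4.27 kb (chr11:54271255-54271850). Both had percentiles of 29.4 or less and no deposited q under 0.05. From FK866 to FK866 plus succinate, 3 sites were lost and 1 gained, against 1.68% and 2.76% of all sites. The lost ones were 12.7 kb from the start of Csf2 (chr11:54236643-54237759), 20.3 kb from that of Lif (chr11:4277266-4278453) and upstream of Lif, at -8.11 kb (chr11:4249271-4249636). The first 2 of these were present in all 4 libraries without succinate. The Csf2 site measured 568 and 550 bp in Control and 860 and 458 bp under FK866, at percentiles of 57.1, 36.4, 28.4 and 5.81. The Lif site 20.3 kb from the start measured 413, 483, 379 and 368 bp, at percentiles of 36.0 to 45.8. The gained one, 25.4 kb above Il10's lower end (chr1:131044869-131045717), was also present in Control 1. From Control to FK866 plus succinate, 4 sites were lost and none gained, against 2.06% and 2.44% of all sites, and these were the 4 just named at Il10 (18.5 kb), Il3, Csf2 and Lif (20.3 kb). None of the 22 sites in all 6 libraries could be lost or gained by this count.

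For each gene tested, the protein-coding gene with the closest 6 covered shares was sought among windows at least 100 kb away, by Euclidean distance in points. Areg was closest to Atp5g3 (1.29 points over 6 libraries), Lif to Klhdc3 (1.97), Csf2 to Atraid (2.06) and Il10 to Mrps18b (2.92). The others were less closely matched, with distances of 3.28 (Il9, Tmem35a), 3.49 (Il6, Nsmce4a), 3.85 (Il2, Tff3) and 3.85 (Tnf, LOC105244150). Likeness of coverage in 6 libraries says nothing of shared function.

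Among genes of the same pathways, none passed the test in either direction in any of the 3 comparisons. All 16 receptor genes of the 9 cytokines had peaks in all 6 libraries, those of IL-2 and IL-3 included. Il2ra, the alpha chain of the IL-2 receptor, was covered over 14.1% to 18.2%, and Il3ra, that of the IL-3 receptor, over 13.05% to 13.97%. The receptor genes with the largest differences were Il9r, at 26.6%, 24.8% and 22.3% in the 3 groups, and Csf2rb, the shared beta chain of the GM-CSF and IL-3 receptors, at 10.4%, 7.55% and 11.5% (limma adjusted p of at least 0.479). Of the 3 type 2 cytokine genes, Il13 was at 52.2%, 54.4% and 42.1% (the last the mean of 48.3% and 36.0%) and Il5 at 40.7%, 43.1% and 39.9%, with limma adjusted p of 0.531 and 0.529 for succinate added to FK866.

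In the EGF family, 7 of 8 ligand genes other than Areg had a peak in all 6 libraries, and Ereg and Hbegf differed most, by 1.30 points under FK866 (limma adjusted p = 1) and by 1.47 points with succinate added (limma adjusted p = 0.838). All 9 other genes of the IL-6 family and colony-stimulating factors had peaks in all 6 libraries, with Il27 at 8.82%, 13.9% and 10.3% and Clcf1 at 24.0%, 21.8% and 19.9%. Of 13 other TNF family ligands, 8 had a peak in all 6 libraries. There, Ltb was at 38.0%, 40.6% and 42.7% and Tnfsf9, which encodes the 4-1BB ligand, at 29.2%, 27.4% and 25.1%.

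Of a list of 18 other interleukin genes, Ifng included, 12 had a peak in any library and 7 in all 6, and there was none at Il1b, Il12b, Il17a, Il19, Il21 or Ifng. Il24 was at 28.8%, 24.6% and 22.0% (limma adjusted p = 0.267 for FK866 plus succinate against Control). Tslp, which encodes an alarmin of epithelial cells, was at 8.74%, 0% and 5.68% (limma adjusted p = 0.771 for FK866 against Control). All 23 regulators of cytokine genes had peaks in all 6 libraries. Zfp36, whose product binds cytokine mRNAs and speeds their decay, was at 43.8%, 41.0% and 37.8%, and Nfkb1, which encodes an NF-kB subunit, at 16.5%, 16.7% and 12.8% (limma adjusted p of at least 0.461 in the 3 comparisons).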

How the data were processed

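CUT&Tag DNA was measured in 6 libraries, 2 in each of the groups Control, FK866 and FK866 plus succinate, grouped by their labels. Per the submitters' processing notes, cutadapt 1.9 and Bowtie2 2.5.0 were used with the build mm10; no source used here names the peak caller. The authors deposited 1 list of peaks per library in the narrowPeak layout. The deposited score was 10 times the -log10 p with decimals dropped in 99.88% to 99.98% of peaks. The fold enrichment, deposited as a ratio, and the deposited -log10 p and -log10 q each refer to 1 list, and the weakest peaks lay at a p-value just under 0.05. The lists give no read counts, so depth is unknown and no counting interval is given; differences in width or presence, not signal, were compared.

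Peaks on 21 chromosomes were kept and 43 to 55 peaks per library on other sequences left out. Coverage was computed with Python 3.11.15, pandas 2.3.3 and numpy 2.4.6. Genes came from the RefSeq table of GRCm38.p6, which has the coordinates of mm10 but no strand or exons; strand came from the promoter table, which holds 8 of the 9 genes. A percentile is the rank of a peak's -log10 p within its list. Windows or flanks covered in at least 2 of 6 libraries were fitted with limma 3.58.1 in R 4.3.3 (lmFit and eBayes with a trend, all 6 libraries sharing 1 spread), with Benjamini-Hochberg adjustment over all of them and a threshold of 0.05. The method was tested on simulated data, with changes far larger than the differences at the cytokine genes. That test does not show whether differences of their size would be called. Beside the 9 genes, the 2 genes of each list with the largest absolute difference and the gene closest in coverage to each cytokine gene were named, with receptor genes Il2ra and Il3ra added after their values were seen. The genes, lists and tests were chosen with earlier results of these data known. Alternatives were other peak sets, flanks, filters, scalings, the replicate number as a block and leaving out each library.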

Additional observations from a re-analysis of the deposited data

How the results depend on the processing

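No cytokine window passed the limma threshold under any of up to 17 alternatives for its 24 differences (390 values). Of these differences 7 kept their sign throughout, and the sign turned in 43 of the 390 values. In 4 kb around the lead site Il9 was not fitted, and shares were taken of 4 kb, not of the gene window. The median over the remaining windows was there -3.71 (FK866 against Control) and 1.93 points (succinate added to FK866). These points are on another scale than the main values. Leaving out 1 library, the median over the 8 windows ran from -1.76 to -1.04 points for FK866 against Control. It ran from -1.28 to -0.119 points for succinate added to FK866 and from -3.84 to -0.975 points for FK866 plus succinate against Control. The value of -3.84 came without FK866 plus succinate 1.

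The number of windows called over all genes (11, 11 and 24) was unsteady. It was 0 in each comparison in the 4 kb windows, among windows covered in all 6 libraries, with only the 4 libraries compared, and with the replicate block. For FK866 against Control it was 3 with the higher-scoring 50% of each list, 6 with a flank of 1 kb and 5 after quantile normalization. For succinate added to FK866 it was 19 with peaks of q under 0.05, 44 with the higher-scoring 50% and 4 with a flank of 5 kb. For FK866 plus succinate against Control it was 49 and 46 with those 2 peak sets. Leaving out 1 library gave 0 to 20, 0 to 40 and 0 to 48. The highest counts came without Control 2, FK866 plus succinate 1 and FK866 plus succinate 1. Counts of 0 came without FK866 1 in all 3, without either FK866 plus succinate library in the first, either Control library in the second and FK866 2 in the third. Further, 2 were called without FK866 2 in the first and second, 29 without FK866 plus succinate 2 in the second and 15 without Control 1 in the third. Distal flanks called stayed at 0 throughout. Same-numbered libraries did not deviate together in covered share (correlations 0.00645, 0.0216 and -0.0585 over 15362 windows). These correlations cannot tell whether same-numbered libraries shared an animal, culture or batch. At Il9, counting only peaks with at least 200 bp in the window lowered the mean number under FK866 to 0.5. The causes were not tested. With 2 libraries a group and no read counts, a difference in signal within a peak cannot be seen.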
